A study of Mus musculus with 10 samples.

Results

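The forkhead genes encode transcription factors that bind DNA through a shared forkhead, or FOX, domain. Peaks of 4 histone marks were described at 35 mouse forkhead genes, which were chosen by name from the GENCODE M1 annotation of the mm9 genome. They fell into 24 developmental genes, whose factors act in particular embryonic tissues, and 11 widely expressed genes, whose factors act in most cell types. The classes followed the genes' known roles, but they were drawn with earlier results of these data known. They are least clear for Foxh1, Foxm1, Foxp1 and Foxp2. Of the 35 genes, 34 had a protein-coding transcription start site (TSS) and were measured, 23 of them developmental and 11 widely expressed, among 22359 protein-coding genes in all. Foxl1 is listed in that annotation as a pseudogene and is described apart from the counts.

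The study mapped histone marks in mesoderm cells sorted for mCherry from mouse embryonic stem cell-derived embryoid bodies (EBs) at day 4, when blood fate is being specified. In the WT group the cells were Scl wt and carried a reporter that leaves SCL, also called TAL1, functional. In the Delta group the cells were Scl d/d, with the same reporter and an SCL protein that lacks its basic helix-loop-helix domain and does not function. Both groups were labelled as C57Bl/6 X Sv129 crosses, although the number after Sv differed between samples, and in both the sorted cells are those in which the Scl locus drives mCherry. Drosophila S2 cells were added to every sample as a spike-in, an approach called ChIP-Rx. Each genotype gave 1 library for each of H2AK119ub, H3K27me3, H3K27ac and H3K4me3 and 1 input library, so no difference between genotypes below has a replicate check and none was tested. The Delta line was made by editing the WT reporter line, each genotype was 1 line grown from a single cell, and effects of SCL and of the clone cannot be told apart. The peak lists do not show the number of reads behind a peak, and depth is unknown from them.

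Forkhead factors are known for opening or occupying regulatory DNA in the lineages they specify, and members such as FOXA2 and FOXH1 act at gastrulation. H3K27me3 is laid down by Polycomb repressive complex PRC2 and H2AK119ub by PRC1, and both are found at developmental genes held silent. H3K4me3 marks promoters and H3K27ac marks active promoters and enhancers. Promoters that carry H3K4me3 together with H3K27me3 are termed bivalent here, a state known from developmental regulators in stem cells.

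The 250 bases upstream of the most upstream coding TSS are given below for 5 genes, because they span low and high CpG content at genes with different marks. They were read from the mm9 genome, 5′ to 3′ in the direction of transcription, and capitals mark CG dinucleotides. Foxf2 (chr13:31717435-31717684, plus strand, 21 CG) and Foxd3 (chr4:99322740-99322989, plus strand, 21 CG) are developmental genes in long H3K27me3 domains. Foxj3 (chr4:119212016-119212265, plus strand, 34 CG) is a widely expressed gene with H3K4me3 and H3K27ac. Foxi1 (chr11:34108090-34108339, minus strand, 4 CG) had no peak of any mark. Foxh1 (chr15:76500379-76500628, minus strand, 3 CG) had H3K4me3 without H3K27me3. The number of CG in this window did not follow the marks throughout, since Foxa2 has 6 and Foxd4 has 4, and both carried H3K4me3, H3K27me3 and H2AK119ub.
Foxf2: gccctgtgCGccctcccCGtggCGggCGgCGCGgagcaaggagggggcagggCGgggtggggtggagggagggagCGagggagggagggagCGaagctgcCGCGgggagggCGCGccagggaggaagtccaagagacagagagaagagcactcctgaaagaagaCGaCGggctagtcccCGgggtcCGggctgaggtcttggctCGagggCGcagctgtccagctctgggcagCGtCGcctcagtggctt
Foxd3: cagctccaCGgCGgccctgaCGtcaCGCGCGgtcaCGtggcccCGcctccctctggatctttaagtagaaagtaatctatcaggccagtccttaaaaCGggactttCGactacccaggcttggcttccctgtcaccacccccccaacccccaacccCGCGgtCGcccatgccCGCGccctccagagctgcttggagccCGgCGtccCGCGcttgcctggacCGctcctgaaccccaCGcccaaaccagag
Foxj3: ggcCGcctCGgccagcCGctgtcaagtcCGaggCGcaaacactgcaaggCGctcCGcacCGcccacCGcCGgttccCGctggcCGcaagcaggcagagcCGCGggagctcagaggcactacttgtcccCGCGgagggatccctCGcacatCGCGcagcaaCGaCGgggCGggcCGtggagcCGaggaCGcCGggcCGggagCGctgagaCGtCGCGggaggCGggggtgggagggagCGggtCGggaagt
Foxi1: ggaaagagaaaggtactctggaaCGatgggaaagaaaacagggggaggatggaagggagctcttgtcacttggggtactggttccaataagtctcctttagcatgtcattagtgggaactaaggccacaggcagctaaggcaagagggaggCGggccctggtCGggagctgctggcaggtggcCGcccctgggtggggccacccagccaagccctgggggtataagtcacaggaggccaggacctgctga
Foxh1: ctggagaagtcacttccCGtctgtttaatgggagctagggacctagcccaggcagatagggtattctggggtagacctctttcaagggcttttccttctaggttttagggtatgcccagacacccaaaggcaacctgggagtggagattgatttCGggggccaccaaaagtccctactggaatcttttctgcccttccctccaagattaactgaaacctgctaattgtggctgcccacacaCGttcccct
The Foxf2 window lay wholly under H3K4me3 and H3K27me3 peaks in both genotypes. The Foxd3 window lay wholly under H3K27me3 in both genotypes but under H3K4me3 in WT only, in a weak peak with a −log10 q of 2.39. At Foxj3 the whole window was under H3K4me3 in both genotypes and under H3K27ac in Delta.

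Most developmental forkhead genes were bivalent, while the widely expressed ones all carried H3K4me3 and were divided between those with and those without H3K27me3. A gene was counted as having a peak when a listed peak came within 2.5 kb of any of its coding TSSs. H3K4me3 was found at 19 of 23 developmental genes in WT and at 20 in Delta, and at 11 of 11 widely expressed genes in both genotypes (all genes: 60.7% in WT and 60.3% in Delta). H3K27me3 was found at 20 and 19 developmental genes and at 6 and 5 widely expressed genes (all genes: 34.8% and 32.7%). H2AK119ub was found at 16 and 14 developmental genes and at 1 and 2 widely expressed genes (all genes: 9.21% and 5%). H3K27ac ran the other way, with 1 developmental gene in each genotype and 7 and 6 widely expressed genes (all genes: 19.9% and 22.8%). Bivalent promoters numbered 18 and 19 of the 23 developmental genes and 6 and 5 of the 11 widely expressed genes (all genes: 32.4% in WT and 30.1% in Delta). At a −log10 q of at least 3 they numbered 17 and 16 developmental genes and 2 and 2 widely expressed genes. The share over all genes at this threshold was not taken, so the drop cannot be read as particular to the widely expressed class. The same 18 developmental genes were bivalent in both genotypes, with Foxi2 added in Delta. Among them is Foxa3, also the developmental gene with H3K27ac in Delta. Its H3K4me3 peak holds a TSS of a neighbouring gene and does not reach its own.

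**Figure D1:**
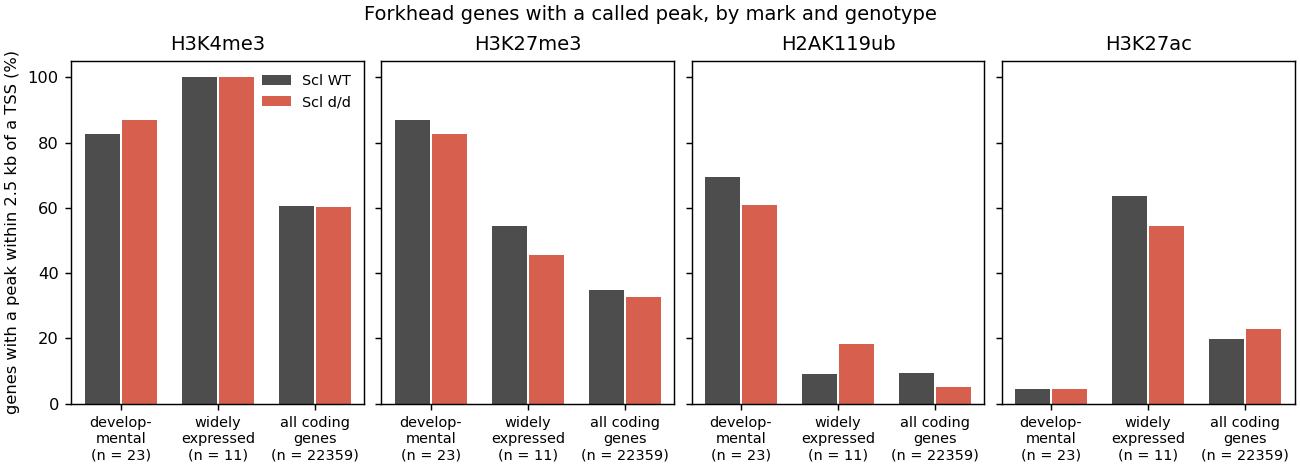
Share of genes with a peak within 2.5 kb of a coding TSS (y axis, percent) for 23 developmental and 11 widely expressed forkhead genes and all 22359 protein-coding genes, with 1 panel per mark and 1 bar per genotype (1 library each). H3K27me3 and H2AK119ub bars are tallest for developmental genes, and H3K27ac bars for widely expressed genes.

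A mark was called in 1 genotype alone at 13 of the 34 members (all genes: 25.9%), 7 of them developmental and 6 widely expressed. H2AK119ub was called in WT alone at Foxi3, Foxn4 and Foxq1 (all genes: 5.08%) and in Delta alone at Foxi2 and Foxo3 (all genes: 0.863%). H3K27me3 was called in WT alone at Foxs1, Foxn3, Foxo3 and Foxp1 (all genes: 7.04%) and in Delta alone at Foxk1 and Foxm1 (all genes: 4.91%). H3K27ac was called in WT alone at Foxh1 and Foxk2 (all genes: 3.43%) and in Delta alone at Foxa3 (all genes: 6.37%). H3K4me3 was called in WT alone at 0 members (all genes: 1.06%) and in Delta alone at Foxi2 (all genes: 0.684%). The whole H2AK119ub list was shorter in Delta, with 2388 peaks against 4922 in WT. For the other marks the number of peaks in Delta was between 0.959 and 1.15 times that in WT.

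**Figure D2:**
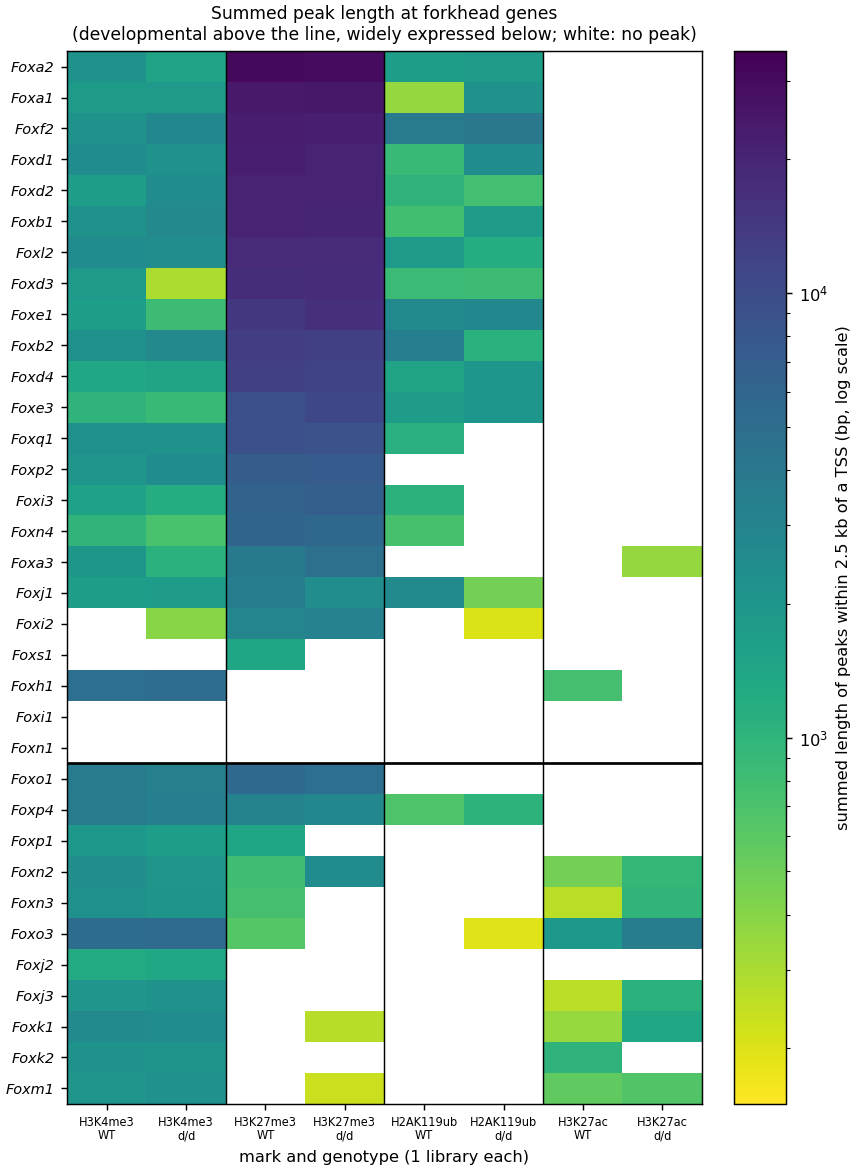
Summed length of the peaks at each forkhead gene (colour, bp on a log scale) in each of the 8 libraries, with genes sorted within their class by H3K27me3 length in WT and no peak shown as white. Foxa2 has the longest H3K27me3 domain, 31401 bp in WT, and the H3K27ac columns above the line are white except at Foxh1 in WT and Foxa3 in Delta.

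The endoderm regulators Foxa1 and Foxa2, pioneer factors of the definitive endoderm, lay in the longest H3K27me3 domains of the set. Foxa2 had 31401 bp of H3K27me3 in WT and 29806 bp in Delta. It had 1639 and 1748 bp of H2AK119ub, over its coding exon, and 2107 and 1514 bp of H3K4me3. Foxa1 had 24187 and 24881 bp of H3K27me3 and 1785 and 1863 bp of H3K4me3. The H3K27me3 and H3K4me3 lengths of Foxa1 thus hardly differed between genotypes, while its H2AK119ub was 356 bp in WT and 2154 bp in Delta, in peaks that shared no base. Foxa3, which acts with them in the liver, had a shorter H3K27me3 domain of 3844 and 4639 bp and no H2AK119ub. Its H3K4me3 peak, 1960 bp in WT and 1071 bp in Delta, lay upstream of its own TSS, and a TSS of the neighbouring gene Sympk lay inside that peak. The near edge of that peak was 473 bp from the Foxa3 TSS in WT and 821 bp in Delta. The H3K27ac peak of Foxa3 was 353 bp long, was called in Delta alone and lay 1054 bp upstream of the TSS. It lay wholly inside the H3K4me3 peak that holds the Sympk TSS, so neither mark can be assigned to Foxa3 rather than Sympk.

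The 6 neural and neural crest genes all carried both H3K27me3 and H3K4me3 in both genotypes, and none had H3K27ac. Foxb1, a gene of the caudal hypothalamus and spinal cord, had 20436 bp of H3K27me3 in WT and 20027 bp in Delta, and 2192 and 2691 bp of H3K4me3. Its H2AK119ub was 779 bp in WT and 1707 bp in Delta. Foxb2 had 12886 and 12465 bp of H3K27me3 and 2285 and 2714 bp of H3K4me3. By full length, the H2AK119ub of Foxb2 went the other way from that of Foxb1. In WT it was a 3327 bp peak upstream of the gene. In Delta it was 1082 bp, in a peak across the 3′ end of the gene and a peak just upstream of it. The WT and Delta peaks shared no base. Only 879 bp of the WT peak lay inside the 2.5 kb window, against all 1082 bp in Delta. Foxd3 is a gene of pluripotent epiblast and of neural crest. It had 16983 and 17350 bp of H3K27me3 and 846 and 829 bp of H2AK119ub. Its H3K4me3 was 1831 bp in WT, across the TSS, and 291 bp in Delta, 1093 bp downstream of the TSS, the greatest difference in H3K4me3 length in the set. Both peaks were weak, with fold enrichments of 3.46 in WT and 3.73 in Delta. Only 8.67% and 9.90% of the peaks in their lists had a lower fold enrichment. Their −log10 q was 2.39 and 2.74, so neither is kept at a threshold of 3. Foxd4, a gene of early neural ectoderm, had 12447 and 11530 bp of H3K27me3, 1450 and 1994 bp of H2AK119ub and 1359 and 1444 bp of H3K4me3. Foxn4, which acts in retinal and spinal interneurons, had 729 bp of H2AK119ub in WT alone. Its H3K27me3 was 5983 and 5533 bp and its H3K4me3 982 and 725 bp. Foxp2, best known for its part in brain circuits for vocal learning, was bivalent with 7079 and 7228 bp of H3K27me3 and 2020 and 2481 bp of H3K4me3 but had no H2AK119ub in either genotype.

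Among the mesenchymal genes, Foxf2, Foxd1 and Foxd2 were alike in their long domains and Foxs1 stood apart. Foxf2, a gene of gut and facial mesenchyme, had 22438 bp of H3K27me3 in WT and 22360 bp in Delta. It had the most H2AK119ub of the members in each genotype, 3601 and 3957 bp, mostly downstream of the TSS, and 2126 and 2728 bp of H3K4me3. Foxd1, a gene of the kidney stroma, had 22038 and 20722 bp of H3K27me3, 871 and 2537 bp of H2AK119ub and 2477 and 2170 bp of H3K4me3. Its H2AK119ub peak thus was longer in Delta, where it took in all of the WT peak. Foxd2, a gene of kidney and facial mesenchyme, had 20765 and 20312 bp of H3K27me3, 1010 and 773 bp of H2AK119ub and 1661 and 2509 bp of H3K4me3. Foxs1, a gene of pericytes, had 1422 bp of H3K27me3 in WT alone, with its near edge 2198 bp from the TSS, and no other peak.

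The epithelial and placodal genes were the most varied group. Foxe1, needed for thyroid and palate, had 14456 bp of H3K27me3 in WT and 16299 bp in Delta, 2604 and 2745 bp of H2AK119ub and 1678 and 825 bp of H3K4me3. The lens gene Foxe3 had 9344 and 10765 bp of H3K27me3, 1751 and 1976 bp of H2AK119ub and 1018 and 891 bp of H3K4me3. Foxq1, a gene of hair and gastric epithelium, had 9246 and 8700 bp of H3K27me3, 2260 and 2192 bp of H3K4me3 and 1091 bp of H2AK119ub in WT alone. Foxi3, a gene of ectodermal placodes, likewise had H2AK119ub in WT alone, 1047 bp. Its H3K27me3 was 6203 and 6675 bp and its H3K4me3 1531 and 1195 bp. The H2AK119ub of Foxj1, the master gene of motile cilia, was 2592 bp in WT and 470 bp in Delta. Its H3K27me3 was 3538 bp and 2411 bp and its H3K4me3 1694 and 1710 bp. The opposite case was Foxi2, a gene of the cranial ectoderm, where 200 bp of H2AK119ub and 398 bp of H3K4me3 were listed in Delta alone beside 2935 and 3113 bp of H3K27me3. Foxi1, of the inner ear and kidney, and Foxn1, of the thymic epithelium, had no peak of any mark in either genotype. The ovarian gene Foxl2 had 18167 and 18371 bp of H3K27me3, 1818 and 1194 bp of H2AK119ub and 2539 and 2438 bp of H3K4me3.

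Foxh1 was the single developmental gene with H3K4me3 and no H3K27me3. FOXH1 is the DNA-binding partner of SMAD2 and SMAD3 in Nodal signalling and is active in the epiblast and early mesoderm. Foxh1 had 4754 bp of H3K4me3 in WT and 5032 bp in Delta, the greatest length among developmental genes. These totals include a peak of 1525 bp in WT and 1524 bp in Delta at the TSS of the neighbouring gene Ppp1r16a. Its H3K27ac, 749 bp in WT alone, lay from 957 to 1705 bp downstream of the TSS, with its midpoint in a coding exon and a fold enrichment over background of 3.68. Of the peaks in its own list 23.1% had a lower fold enrichment, and its −log10 q was 1.97.

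**Figure D3:**
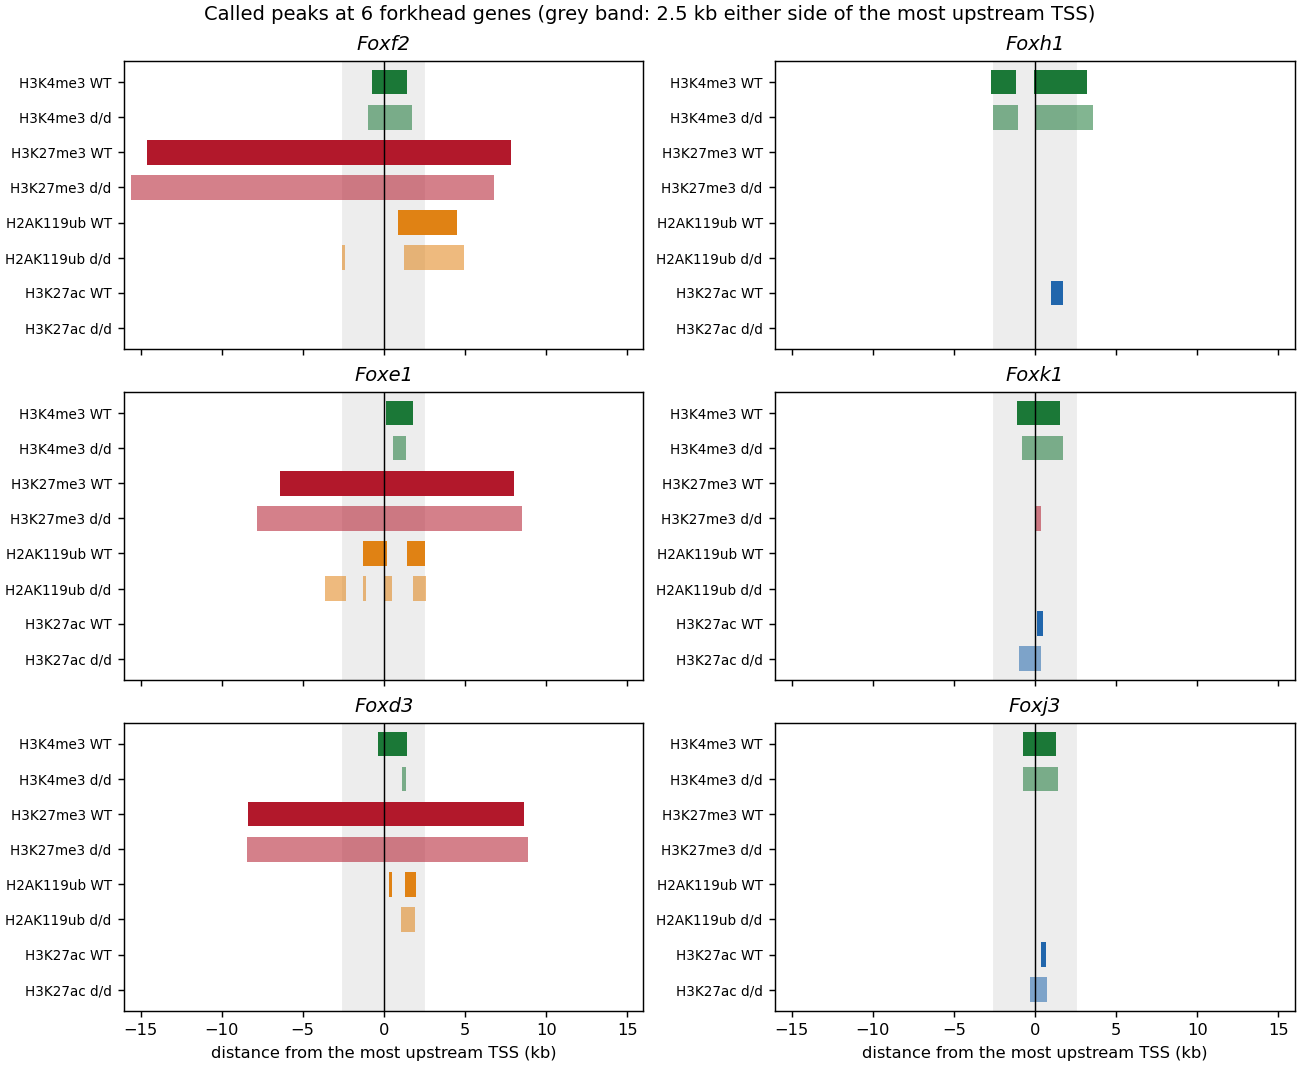
Called peaks (bars) at 3 developmental genes in H3K27me3 domains (left), at Foxh1 and at 2 widely expressed genes (right), by distance from the most upstream coding TSS (x axis, kb, transcription to the right), with 1 row per mark and genotype. The H3K4me3 bar of Foxd3 is shorter in Delta (291 bp) than in WT (1831 bp), and the H3K27ac bars of Foxk1 and Foxj3 are longer in Delta. Both Foxd3 H3K4me3 peaks have a −log10 q below 3.

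H3K27me3 covered more than a promoter at many developmental forkhead genes, and its length there differed by less than 1.5-fold between genotypes. Among developmental genes with a peak the median summed length was 12667 bp in WT and 12465 bp in Delta, against 1725 and 1980 bp over all genes with a peak and 1096 and 2502 bp over the widely expressed members with a peak. In each genotype 13 of 23 developmental genes and 0 of 11 widely expressed genes lay wholly under H3K27me3, from the start to the end of the annotated gene. Another 4 developmental genes had no base under it, and the rest were covered in part, from 0.535% of the long gene Foxp2 to 75.1% of Foxi2 in WT. The developmental genes are also short, and 10 of 23 have a coding transcript of a single exon, against 0 of 11 widely expressed genes and 13.9% of all genes. Of the 19 developmental genes with H3K27me3 in both genotypes, 19 had lengths within 1.5-fold of each other, and 0 were at least 1.5-fold longer in Delta (all genes with a peak in both: 13.5%) or in WT (14.8%). The fold enrichment of the domain was higher in Delta at 18 of these 19 genes, with a median of 8.44 in WT and 9.45 in Delta, and at 61.6% of all genes with a peak in both. Fold enrichment is relative to the input of each genotype and is not scaled to the spike-in.

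H2AK119ub lay inside these domains. All 24 H2AK119ub peaks at members in WT lay wholly inside an H3K27me3 peak, as did 24 of 25 in Delta, the exception being Foxo3, and in each genotype 3 of them spanned a TSS. Of bivalent developmental genes, 16 of 18 carried H2AK119ub in WT and 14 of 19 in Delta, against 23.6% and 14.9% of all bivalent genes. Of the 17 members with H2AK119ub in WT, 14 also had it in Delta (82.4%), against 925 of 2060 genes (44.9%). Over all genes this share was higher at longer H3K27me3 domains. Among all genes with H2AK119ub in WT it was 9.71% of 206 genes with no H3K27me3 in WT, 24.8% of 813 genes where H3K27me3 summed to less than 5 kb, 55.3% between 5 and 10 kb and 83.9% of 446 genes at 10 kb or more. The forkhead genes with 10 kb or more had H2AK119ub in Delta at 11 of 11, a share near that of other genes with domains this long, and those between 5 and 10 kb at 1 of 4. Below 5 kb, both forkhead genes with H2AK119ub in WT, Foxj1 and Foxp4, had it in Delta. With so few members below 10 kb, the order seen over all genes cannot be checked in the members. The 3 genes with H2AK119ub in WT alone, Foxi3, Foxn4 and Foxq1, had between 5 and 10 kb.

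The lengths of H2AK119ub at members went in both directions. Over the 14 genes with a peak in both genotypes the median log2 ratio of Delta over WT was 0.11, against −0.45 over 925 genes. The range over the 14 was from −2.46 to 2.60. Its upper end was Foxa1, where only 131 bp of the WT peak lay inside the 2.5 kb window. With a TSS distance of 1000 bp the median turned to −0.48 over the 6 members left, against −0.53 over 661 genes, so the contrast with all genes was nearly gone. At least 1.5-fold longer in Delta were 4 members, Foxa1, Foxb1, Foxd1 and Foxp4 (all genes with a peak in both: 20.1%). At least 1.5-fold longer in WT were 3 members, Foxb2, Foxj1 and Foxl2 (all genes with a peak in both: 45.4%). These are full lengths. Inside the 2.5 kb window, Foxb2 (WT 879, Delta 1082 bp) and Foxl2 (WT 687, Delta 1194 bp) were instead longer in Delta. Foxj1 stayed longer in WT (WT 2592, Delta 470 bp). Foxe1, Foxe3 and Foxf2 turned the other way, being longer in WT inside the window. At 11 of the 14 genes the WT and Delta peaks shared bases, and at Foxa1, Foxb2 and Foxd2 they did not. H2AK119ub peaks at developmental members had fold enrichments from 3.07 to 4.16 in WT and from 3.52 to 5.36 in Delta. The median of the highest per gene was 3.69 in WT and 4.29 in Delta, against 3.68 and 4.03 over all genes with a peak, and the 5.36 of Foxe1 was the highest of any gene in Delta. At a −log10 q of at least 3, 0 of 23 developmental genes kept an H2AK119ub peak in WT and 2 in Delta, so the order of the genotypes turned with that threshold. With equal numbers of top peaks the counts were 10 in WT and 14 in Delta. The shares over all genes under these settings were not taken.

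**Figure D4:**
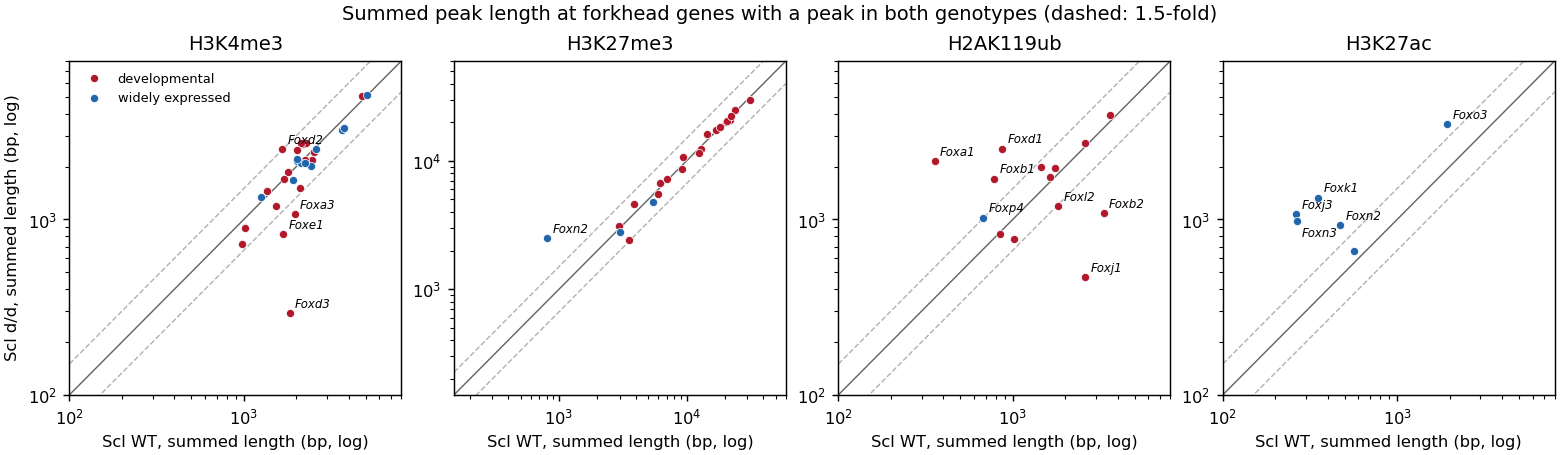
Summed peak length in Scl d/d (y axis, bp, log scale) against Scl WT (x axis, bp, log scale) for forkhead genes with a peak in both genotypes, with 1 point per gene and dashed lines at 1.5-fold. H3K27me3 points lie between the 1.5-fold lines except Foxn2, H2AK119ub points scatter to both sides, and all 6 H3K27ac points lie above the line.

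H3K4me3 had a lower fold enrichment at developmental than at widely expressed members. The median of the highest fold enrichment per gene was 4.90 in WT and 4.48 in Delta at developmental genes, against 7.37 and 6.59 over all genes with a peak. At widely expressed genes it was 8.37 in WT, with a range from 6.14 to 10.6, and the range in Delta was from 5.41 to 8.79. Of the 30 members with H3K4me3 in both genotypes, 1 was at least 1.5-fold longer in Delta, Foxd2 (all genes with a peak in both: 2.99%). Foxa3, Foxd3 and Foxe1 were at least 1.5-fold longer in WT (all genes with a peak in both: 9.87%). The median log2 ratio of Delta over WT was −0.04 for the members and −0.11 for all genes with a peak in both.

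The widely expressed genes carried H3K4me3 of 1262 to 5111 bp in WT and 1342 to 5157 bp in Delta. Their H3K27ac peaks were longer in Delta at all 6 genes that had them in both genotypes, while Foxk2 had H3K27ac in WT alone. FOXO1 and FOXO3 are held in the cytoplasm when insulin and PI3K-AKT signalling is on, and they differed from each other in their marks. Foxo3 had 1927 bp of H3K27ac in WT and 3488 bp in Delta. Its H3K27me3 was 638 bp in WT alone and its H2AK119ub 194 bp in Delta alone. Foxo1 had no H3K27ac but the longest H3K27me3 of the class, 5433 bp in WT and 4767 bp in Delta. Both had broad H3K4me3, of 5111 and 5157 bp at Foxo3 and 3660 and 3226 bp at Foxo1.

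H3K27ac was also found at the cell cycle factors and at most of the Foxj, Foxk and Foxn2 genes. Foxm1, which drives mitotic genes, had 566 bp of H3K27ac in WT and 657 bp in Delta and 2028 and 2212 bp of H3K4me3. In Delta alone it had 230 bp of H3K27me3. All of the H3K27ac at Foxm1 also covered a TSS of the neighbouring gene 5930416I19Rik. Foxn3, a factor of the DNA damage checkpoint, had 265 bp of H3K27ac in WT and 979 bp in Delta, and 745 bp of H3K27me3 in WT alone. Its H3K4me3 was 2246 and 2097 bp. For Foxj3 H3K27ac was 264 and 1070 bp and H3K4me3 2017 and 2162 bp, with no H3K27me3. Foxk1 and Foxk2 encode factors that hold down autophagy genes when nutrients are plentiful, and they differed from each other in Delta. Foxk1 had 351 bp of H3K27ac in WT and 1331 bp in Delta, 271 bp of H3K27me3 in Delta alone and 2610 and 2530 bp of H3K4me3. Foxk2 had 1006 bp of H3K27ac in WT alone and 2118 and 2090 bp of H3K4me3. Foxn2 carried H3K4me3, H3K27me3 and H3K27ac in both genotypes, with 470 and 925 bp of H3K27ac, 805 and 2502 bp of H3K27me3 and 2435 and 2022 bp of H3K4me3. Foxj2 had H3K4me3 alone, 1262 and 1342 bp. The FOXP factors are repressors, and neither widely expressed member had H3K27ac. Foxp4 had 3023 bp of H3K27me3 in WT and 2767 bp in Delta, 678 and 1024 bp of H2AK119ub and 3757 and 3340 bp of H3K4me3, and was the single widely expressed gene with H2AK119ub in WT. Foxp1 had 1386 bp of H3K27me3 in WT alone and 1907 and 1670 bp of H3K4me3.

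H3K27ac was longer in Delta at 6 of the 6 members with a peak in both genotypes, Foxj3, Foxk1, Foxm1, Foxn2, Foxn3 and Foxo3. The median log2 ratio of Delta over WT was 1.43, with a range from 0.22 to 2.02, against 0.02 over 3672 genes with a peak in both. At least 1.5-fold longer in Delta were 5 of these 6 (all genes with a peak in both: 23.6%), and at least 1.5-fold longer in WT were 0 (all genes with a peak in both: 19.1%). Their highest fold enrichment was also higher in Delta at 6 of 6, with a median of 4.47 in WT and 5.01 in Delta, and at 63.8% of all genes with a peak in both. At a −log10 q of at least 3, Foxk1 kept no H3K27ac peak in WT (2.69) and Foxo3 none in Delta (2.61). The remainder of the 6 kept theirs in both genotypes. The 6 leave out Foxk2 and Foxh1, which had H3K27ac in WT alone, and Foxa3, which had it in Delta alone. In WT all of the 6 but Foxo3 had less H3K27ac than the median of 574 bp over all genes with a peak. The whole H3K27ac list covered 1.11 times as much sequence in Delta as in WT. H3K27me3 called in 1 genotype alone at Foxk1, Foxm1, Foxn3, Foxo3 and Foxp1 was short, between 230 and 1386 bp in all, and at a −log10 q of at least 3 only 2 widely expressed genes had H3K27me3 in each genotype.

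CpG-rich promoters carried different marks in the developmental and the widely expressed class. CpG observed over expected, the count of CG dinucleotides relative to that given by the C and G content, was taken over 500 bp either side of each coding TSS, and the highest value of a gene was used, a choice made after the data were seen. A gene was called CpG rich at 0.6 or more with at least 50% GC. By this measure 16 of 23 developmental, 10 of 11 widely expressed and 48.0% of all genes were CpG rich. At the most upstream TSS alone the counts were 15 of 23, 8 of 11 and 44.6%, since Foxa2, Foxk2 and Foxp1 were CpG rich at another of their TSSs. Of the 16 CpG-rich developmental genes, 16 had H3K27me3 in WT and 15 had H2AK119ub, Foxp2 being the exception. The 10 CpG-rich widely expressed genes had H3K27me3 at 5 and H2AK119ub at 1. Over all CpG-rich genes these shares were 55.9% and 13.5%. H3K27ac in WT was at 0 of the 16 and 6 of the 10, and at 38.6% of all CpG-rich genes. The 7 developmental genes below that limit included 4 with few or no Polycomb marks, with values of 0.180 for Foxn1, 0.292 for Foxi1, 0.293 for Foxh1 and 0.394 for Foxs1. The remainder carried H3K27me3 in both genotypes. Foxd4, at 0.431, had H3K4me3, H3K27me3 and H2AK119ub in both genotypes. Foxi2, at 0.560, had all of these marks in Delta. Foxa3, at 0.595, was bivalent in both, through an H3K4me3 peak that holds a TSS of Sympk.

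**Figure D5:**
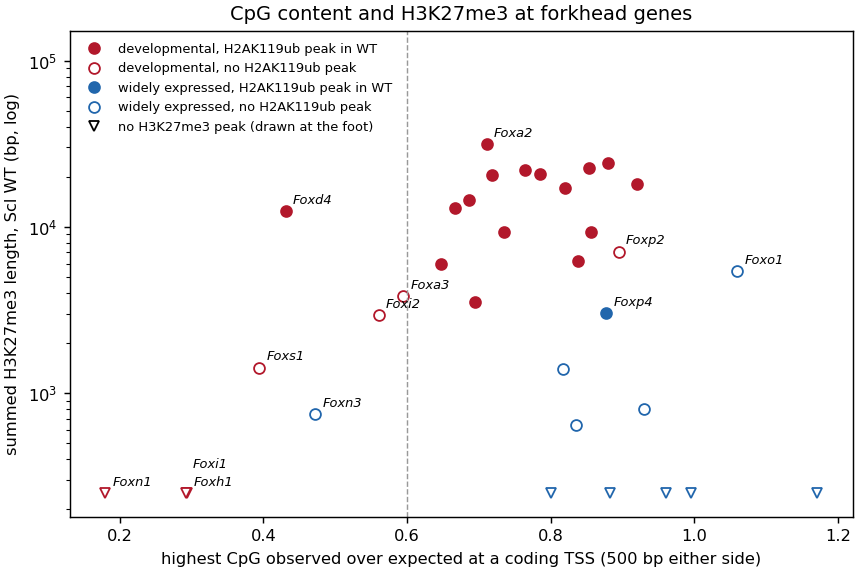
Summed H3K27me3 length in WT (y axis, bp, log scale) against the highest CpG observed over expected at a coding TSS (x axis) for the 34 measured genes, filled where H2AK119ub was called in WT. To the right of the dashed line at 0.6 nearly all developmental genes are filled, and Foxp4 is the 1 filled widely expressed gene.

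Motif matches were counted in the same upstream windows. The forkhead motif GTAAACA, searched on both strands as that and TGTTTAC in the 250 bases upstream of the most upstream TSS, was present at 1 of 34 members, Foxa1, and at 2.71% of all genes. The E-box CAGNTG, a motif that SCL complexes can bind, searched on both strands as that and CANCTG, was present at 9 of 34 members (26.5%) and at 41.9% of all genes. Foxf2 and Foxi1 of the promoters printed above hold it. A match is a description of the letters and not a bound site.

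The pseudogene entry Foxl1, a gene of gut mesenchyme, looked like the developmental genes. It had 20670 bp of H3K27me3 in WT and 22022 bp in Delta, 4275 and 2600 bp of H2AK119ub, 1549 and 2115 bp of H3K4me3 and no H3K27ac. Among the measured genes, Foxd2 and Foxe3 lie 17.2 kb apart and Foxf2 and Foxq1 67.6 kb apart between TSSs, and no peak reached both members of either pair.

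Genes that work with forkhead factors were taken from lists of known partners and targets. The shares of all genes to set beside the counts are 34.8% in WT and 32.7% in Delta for H3K27me3, 9.21% and 5% for H2AK119ub, 19.9% and 22.8% for H3K27ac and 60.7% and 60.3% for H3K4me3. For a mark called in 1 genotype alone they are 7.04% in WT alone and 4.91% in Delta alone for H3K27me3. They are 5.08% and 0.863% for H2AK119ub and 3.43% and 6.37% for H3K27ac. Of 13 genes of Nodal signalling, which acts through FOXH1, 10 had H3K27me3 in WT and 9 in Delta, 5 and 3 had H2AK119ub, and 3 and 6 had H3K27ac. H3K27ac was called in Delta alone at the receptor gene Acvr2a (222 bp), the co-receptor gene Cfc1 (299 bp) and Smad3 (1481 bp), and in WT alone at 0 of the list. Nodal itself and Lefty2 had H2AK119ub in WT alone, of 903 and 1054 bp. H3K27me3 was called in WT alone at Cfc1 (1390 bp) and Smad2 (524 bp) and in Delta alone at Smad3 (302 bp). H3K4me3 was called in Delta alone at Cfc1 (1953 bp, all genes: 0.684%). Of 14 genes of the insulin and PI3K pathway upstream of FOXO, 14 had H3K4me3 in both genotypes. H3K27me3 was at 9 of them in WT and 10 in Delta. It was called in Delta alone at Pik3ca (592 bp) and Sirt1 (315 bp) and in WT alone at Pdpk1 (320 bp). H2AK119ub was at 0 in WT and 1 in Delta, Irs1 (453 bp). H3K27ac was at 10 of them in WT and 13 in Delta. It was called in Delta alone at the receptor genes Insr (240 bp) and Igf1r (409 bp), at Irs1 (297 bp) and at Pdpk1 (164 bp), and in WT alone at the kinase gene Sgk1 (337 bp). Of 10 FOXO target genes 7 had H3K27me3 in each genotype, and 5 had H3K27ac in WT and 6 in Delta. H3K27ac was called in Delta alone at Bcl2l11 (1589 bp), which promotes apoptosis, and Gadd45a (490 bp), and in WT alone at Klf2 (480 bp). Of 12 mitotic targets of FOXM1, 8 had H3K27ac in WT and 6 in Delta, and 6 and 9 had H3K27me3. H3K27me3 was called in Delta alone at Ccnb1 (458 bp), Plk1 (1004 bp) and Cenpa (230 bp), as at Foxm1 itself. H3K27ac was called in WT alone at Ccnb2 (262 bp), Aurkb (303 bp) and Cenpa (225 bp) and in Delta alone at Cenpf (218 bp). Bivalent genes in WT and Delta numbered 7 and 7 for the Nodal list and 9 and 10 for the insulin and PI3K list. They numbered 7 and 7 for the FOXO targets and 6 and 9 for the FOXM1 targets (all genes: 32.4% and 30.1%). The median ratio of Delta over WT length was also taken over the few genes with H3K27ac in both genotypes. It was 0.999 for the Nodal list (3 genes), 0.785 for the insulin and PI3K list (9 genes) and 1.11 for the FOXO targets (4 genes). For the FOXM1 targets (5 genes) it was 0.943, against 2.70 for the widely expressed forkhead genes (6 genes).

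Markers were used to check the labelled cells. Of 10 blood and haemangioblast genes 9 had H3K4me3 in WT and 7 in Delta (all genes: 60.7% and 60.3%). H3K27ac was at 4 of them in WT, Tal1, Lmo2, Gata2 and Lyl1, and at 0 in Delta (all genes: 19.9% and 22.8%). The same list had H3K27me3 at 6 genes in each genotype (all genes: 34.8% and 32.7%), at a median of 1.99 times the WT length in Delta. H3K27ac was at 0 genes in either genotype for the lists of paraxial, cardiac, endoderm and pluripotency genes, of 5 genes each, and for 4 neural genes. H3K4me3 length in these lists went in both directions, over 2 or 3 genes each. Its median in Delta was 1.89 times that in WT for paraxial, 1.15 for cardiac and 1.13 for pluripotency genes. It was 0.718 times for endoderm and 0.782 times for neural genes. At a later day the study found the surface protein PDGFRα on most mCherry-positive Delta cells but on few WT ones. Whether a different mix of cells after sorting has a part in the differences at forkhead genes was not tested.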

How the data were processed

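Libraries were made by ChIP-Rx from sorted day 4 EB cells of the WT and Delta lines. Per the labels and the study's methods, the authors trimmed reads with Trim Galore, mapped them to mm9 and dm3 with Bowtie, and called broad peaks in each library with MACS2 2.0.10 (broad cutoff 0.05) against the input of the same genotype. The deposited fold enrichment is a ratio over local background, the deposited −log10 values are of a p-value and a q-value, and the deposited score was not used. The authors described spike-in scaling for read densities only, so the lists do not show changes in the overall level of a mark. The 8 lists held 70826 peaks.

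The members, classes and lists were chosen with earlier results of these data known. The peaks of a gene are those within 2.5 kb of any protein-coding TSS (GENCODE M1, mm9, without the mitochondrial chromosome), and their full lengths were summed. Distances are to the nearest coding TSS of the gene. A length difference was counted from 1.5-fold. With 1 library per mark and genotype no test was run, and counts and medians are given beside those of all genes. Values in every library are given for members with H2AK119ub, H3K27ac or a mark in 1 genotype alone, for lengths of H3K27me3 or H3K4me3 that differ by 2-fold or more, and for the longest and shortest H3K27me3 totals. Pathway genes are named where a mark was called in 1 genotype alone. The counting was tested on simulated data (200 genes) and checked against bedtools 2.31.1, with 0 of 8 lists differing. Python 3.11.15 with NumPy 2.4.6 was used, and matplotlib 3.10.9 for the plots. Alternatives were thresholds of 3 on the −log10 q and of 3 on the fold enrichment, equal numbers of top peaks, a TSS distance of 1000 bp, the most upstream TSS alone, peaks joined up to 3000 bp apart, the set without Foxh1, Foxm1, Foxp1 and Foxp2, the set without genes on chromosomes 1 and 8, and only the bases inside the window. The reads and the 2 inputs were not analysed here.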

Additional observations from a re-analysis of the deposited data

How the results depend on the processing

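No paired analysis was possible because each mark and genotype had 1 library and the labels give no replicate numbers. Of 325 values of 42 results recomputed under the alternatives, 285 stayed in direction and within 1.5-fold. Counts of genes with a peak under the alternatives were taken over the members only, without the share over all genes. With peaks limited to a −log10 q of 3 or more, H2AK119ub counts of developmental genes were 0 in WT and 2 in Delta (0 in WT alone and 2 in Delta alone), those of widely expressed genes were 0 in WT, 0 in Delta and 0 in Delta alone, and the median length ratio had no value. At that threshold H3K27me3 was at 2 widely expressed genes in each genotype (2 in WT, 2 in Delta) and at 0 in either alone, and at 0 developmental genes in WT alone, and bivalent widely expressed genes numbered 2 in WT and 2 in Delta. H3K27ac was then at 0 developmental genes in WT, Delta, WT alone and Delta alone and at 1 widely expressed gene in Delta alone, and H3K4me3 at 1 developmental gene in WT alone and 0 in Delta alone. With equal numbers of top peaks H2AK119ub was at 10 developmental genes in WT and at 6 in Delta alone, and H3K27ac at 0 in Delta and 0 in Delta alone. With a TSS distance of 1000 bp H2AK119ub was at 5 developmental genes in WT alone and 5 in Delta alone and at 0 widely expressed genes in WT and 1 in Delta, and its median log2 length ratio turned from 0.11 to −0.48. The same distance left H3K27me3 at 0 developmental genes in WT alone, H3K27ac at 0 in Delta and 0 in Delta alone, and H3K4me3 at 1 in WT alone. The most upstream TSS alone gave 1 widely expressed gene with H3K27me3 in WT alone and 0 with H3K27ac in WT alone. Joined peaks moved the median log2 ratio of H3K27me3 from −0.017 to 0.023. Without Foxh1, Foxm1, Foxp1 and Foxp2, H3K27ac was at 0 developmental genes in WT and 0 in WT alone, and H3K27me3 at 1 widely expressed gene in Delta alone. The cause of these changes was not tested, except that the fewer genes of the last set follow from its construction. No measured member lies on chromosomes 1 and 8, so that alternative was without effect. Its 40 values, counted among the 285, were unchanged by construction. A count of 0 in both the main setting and an alternative was also taken as unchanged. A fold enrichment of at least 3 took H3K27me3 in WT from Foxo3, which left 5 widely expressed genes with it in WT, 2 of them in WT alone, and 5 bivalent in WT.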
